A study of Rattus norvegicus with 14 samples.

Results

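The genes described here act in the release of arachidonic acid from membranes and in its conversion to prostaglandins. They are 10 of the 16816 gene symbols in the count table: the phospholipases A2 Pla2g4a, Pla2g5 and Pla2g2d, the phospholipase A2 receptor Pla2r1, the cyclooxygenases Ptgs1 and Ptgs2, the prostaglandin synthases Ptgds, Hpgds and Ptges, and the prostaglandin dehydrogenase Hpgd. The members were named gene by gene, and they were selected on measured values of these same libraries in all 4 groups, so their levels and fold changes are given as a description and carry no p value. The study had also chosen a list of genes on these libraries that holds 6 of them (Hpgds, Pla2g2d, Pla2g4a, Pla2g5, Ptgs1 and Ptgs2).

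The RNA came from PCCL3, a follicular line of rat thyroid kept in thyrotropin, insulin and hydrocortisone. PPFP cells stably carry the human PAX8-PPARG fusion protein with a myc tag, an oncoprotein of follicular thyroid carcinoma, and EV cells stably carry the empty vector. Each cell line received 1 μM pioglitazone, a PPARG agonist dissolved in DMSO, or vehicle for 16 hours, which gives 4 groups of 3 libraries from 3 independent experiments. There was a single line of each kind, so differences between the clones or pools cannot be told apart from the effect of PPFP. The libraries held between 23724703 and 35240176 counts on genes, and 3 counts corresponded to 0.081 to 0.127 CPM (counts relative to the library total, scaled by the TMM method over all 12 libraries). All 9 thyroid follicular markers examined, thyroglobulin and the TSH receptor among them, had a mean of at least 1 CPM in every group, and their summed level was between 10200 and 14600 CPM. Without pioglitazone Pparg went from 1.61 ± 0.32 CPM in the EV libraries to 53.7 ± 6.57 CPM in the PPFP libraries (SD, n = 3). Its fitted log2 difference was 5.08 (standard error 0.19, edgeR quasi-likelihood adjusted p = 3.6e-06), and reads of the human transgene that align to the rat gene cannot be separated from rat Pparg.

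Arachidonic acid is held in membrane phospholipids until a phospholipase A2 cuts it free, and the cytosolic enzyme encoded by Pla2g4a is the main one that responds to calcium and kinases. The cyclooxygenases turn it into prostaglandin H2, and terminal synthases then make prostaglandin D2, prostaglandin E2 or another prostanoid, which is inactivated by the dehydrogenase encoded by Hpgd. Dehydration products of prostaglandin D2, and other oxidised fatty acids, are known to bind PPARG.

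The promoters of 4 members are shown because they are among the genes whose levels differed most between the cell lines, or that neighbour each other on the chromosome with opposite differences. Ptgds and Pla2r1 had no count in any PPFP library, and Pla2g2d and Pla2g5 lie side by side in the secreted phospholipase A2 cluster. Each is the RefSeq promoter in the rat assembly GRCr8, 250 bases before and 50 bases after the start, written 5′ to 3′ on the gene's strand, with the letters of a searched motif in capitals.
Ptgds (GRCr8, chr3:28682929-28683228, minus strand): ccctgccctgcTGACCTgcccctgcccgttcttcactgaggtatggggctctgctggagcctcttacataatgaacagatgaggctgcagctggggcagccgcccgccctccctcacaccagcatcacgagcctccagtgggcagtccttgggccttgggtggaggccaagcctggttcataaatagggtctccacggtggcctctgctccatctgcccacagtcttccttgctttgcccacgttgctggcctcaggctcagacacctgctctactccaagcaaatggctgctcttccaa
Pla2r1 (GRCr8, chr3:65422286-65422585, minus strand): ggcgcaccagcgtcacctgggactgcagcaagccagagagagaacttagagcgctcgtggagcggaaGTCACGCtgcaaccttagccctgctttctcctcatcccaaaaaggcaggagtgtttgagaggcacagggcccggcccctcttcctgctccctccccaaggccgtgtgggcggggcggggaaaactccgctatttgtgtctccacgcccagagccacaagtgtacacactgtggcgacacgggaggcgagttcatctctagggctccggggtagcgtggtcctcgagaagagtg
Pla2g2d (GRCr8, chr5:156299382-156299681, plus strand): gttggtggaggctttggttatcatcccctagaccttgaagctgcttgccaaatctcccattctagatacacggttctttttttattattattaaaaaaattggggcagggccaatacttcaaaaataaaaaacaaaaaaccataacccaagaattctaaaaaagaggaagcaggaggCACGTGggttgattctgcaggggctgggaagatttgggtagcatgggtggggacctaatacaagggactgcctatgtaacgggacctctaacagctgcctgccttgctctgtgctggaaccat
Pla2g5 (GRCr8, chr5:156345873-156346172, minus strand): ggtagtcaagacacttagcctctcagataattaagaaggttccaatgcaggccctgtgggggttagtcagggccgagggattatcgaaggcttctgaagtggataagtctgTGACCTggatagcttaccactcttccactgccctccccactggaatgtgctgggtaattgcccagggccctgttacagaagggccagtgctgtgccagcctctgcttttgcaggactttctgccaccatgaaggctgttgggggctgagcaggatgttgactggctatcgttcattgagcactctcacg

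A promoter entry was found for 9 of the 10 members, and Hpgds had none. Searched on both strands were AGGTCA (a nuclear receptor half-site), AGGTCANAGGTCA (2 such half-sites as a direct repeat, which contains the former), GTCACGC (a core of paired-domain sites), TGACGTCA (the cAMP response element), CACGTG (an E-box) and TATAAA (the TATA box). The half-site stood in the promoters of Ptgds and Pla2g5 on the opposite strand, where the capitals read TGACCT, with its first base at -239 and -139 from the start, and in that of Pla2g4a on the gene's strand. The half-site was found in 16.2% of all 33469 promoters of the same length, the direct repeat in 0.0538%, GTCACGC in 2%, TGACGTCA in 1.83%, CACGTG in 6.42% and TATAAA in 14.2%. Pla2r1 had GTCACGC at -183, Pla2g2d had CACGTG at -73 and Ptgs2 had CACGTG at -55. Pla2g4a also had TATAAA on the opposite strand, Hpgd had CACGTG within its first 50 transcribed bases, and none of these letter strings was found in the windows of Ptgs1 and Ptges. These matches describe letters in a window and are not evidence of binding.

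The 2 D synthases differed in opposite directions between the cell lines. Ptgds encodes the lipocalin-type prostaglandin D synthase, a secreted enzyme and lipid carrier known from brain and other tissues. It had 256, 254 and 160 counts in the EV libraries without pioglitazone and 269, 326 and 139 with it, and 0 counts in each of the 6 PPFP libraries. In CPM the EV libraries had 8.57, 8.50 and 5.48 without pioglitazone and 7.26, 10.4 and 4.99 with it, so every EV library was above the limit that a count of 0 allows. Taking 3 counts per library as that limit, Ptgds was at least 64.9-fold lower in PPFP cells without pioglitazone and at least 69.8-fold lower with it. In EV cells the means with and without pioglitazone, 7.56 ± 2.73 and 7.52 ± 1.76 CPM (SD, n = 3), differed by less than the spread between libraries.

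Hpgds encodes the hematopoietic prostaglandin D synthase, a cytosolic glutathione transferase of the sigma class that is best known from mast cells and helper T cells. In EV cells it was low, with 25, 23 and 46 counts without pioglitazone and 25, 23 and 34 with it. In PPFP cells it had 860, 984 and 828 counts without pioglitazone and 1000, 1278 and 1403 with it. No PPFP library came near an EV library: the EV levels were 0.675 to 1.58 CPM and the PPFP levels 31.6 to 47.7 CPM. The log2 fold change of PPFP versus EV cells was 5.04 (standard error 0.24) without pioglitazone, or 32.8-fold, and 5.70 (0.23) with it, or 51.9-fold. Within PPFP cells the mean was 34.3 ± 2.48 CPM without and 44.0 ± 5.39 CPM with pioglitazone (SD, n = 3), and the libraries of these groups did not overlap. Without EV replicate 3, which had the highest Hpgds level among the EV libraries without pioglitazone, the log2 fold change without pioglitazone was 5.41.

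Of the genes that mark mast cells, Cpa3, Tpsb2, Kit and Fcer1a had no count in any of the 12 libraries. The summed level of the 8 mast cell markers was between 1.14 and 1.67 CPM in EV cells and between 1.11 and 2.72 CPM in PPFP cells, all of it Hdc in EV cells. Hdc, the histidine decarboxylase gene, was highest where Hpgds was highest: it had 2.48 to 2.72 CPM in PPFP libraries with pioglitazone, above all other libraries, and a mean of 2.59 CPM beside 1.48 in PPFP cells without pioglitazone, 1.26 in EV cells without it and 1.51 in EV cells with it. Of 8 macrophage markers, Cd163 and Mrc1 were at 0 throughout, and the sum was between 5.29 and 7.13 CPM in EV cells and between 4.59 and 6.21 CPM in PPFP cells. Most of that sum was Cd14. Without and with pioglitazone its means were 5.74 and 5.45 CPM in EV cells and 4.24 and 3.93 CPM in PPFP cells. Cd68 went the other way, at 0.529 and 0.549 CPM in EV cells and 0.945 and 1.21 CPM in PPFP cells. Aif1 also had higher means in PPFP cells, of at most 0.216 CPM. Fibroblast markers summed to 22.4 to 24.2 CPM in EV cells and 20.4 to 34.5 CPM in PPFP cells, with Col3a1 and Dcn at 0, and endothelial markers to at most 1.48 CPM. Most of the fibroblast sum was Pdgfra. Its means were 21.2 and 24.9 CPM in EV and PPFP cells without pioglitazone and 21.8 and 29.4 CPM with it. The 6 adipocyte markers summed to between 9.44 and 13.9 CPM in EV cells and between 721 and 1010 CPM in PPFP cells, mostly Cfd. Cfd, Plin1 and Cidec were higher in each PPFP library than in any EV library, with means of 710, 6.39 and 7.99 CPM in PPFP cells without pioglitazone. Adipoq had means of 2.13 and 4.50 CPM in EV and PPFP cells without pioglitazone and overlapped between them with it, at 1.88 and 2.40 CPM. Lep was at 0 in every library, and Fabp4 at 0 in the EV and PPFP libraries without pioglitazone. Their part in the differences of Ptgds, Hpgds and the other members was not tested. In bulk RNA, fewer cells with a transcript and less RNA in each cell cannot be told apart.

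**Figure D1:**
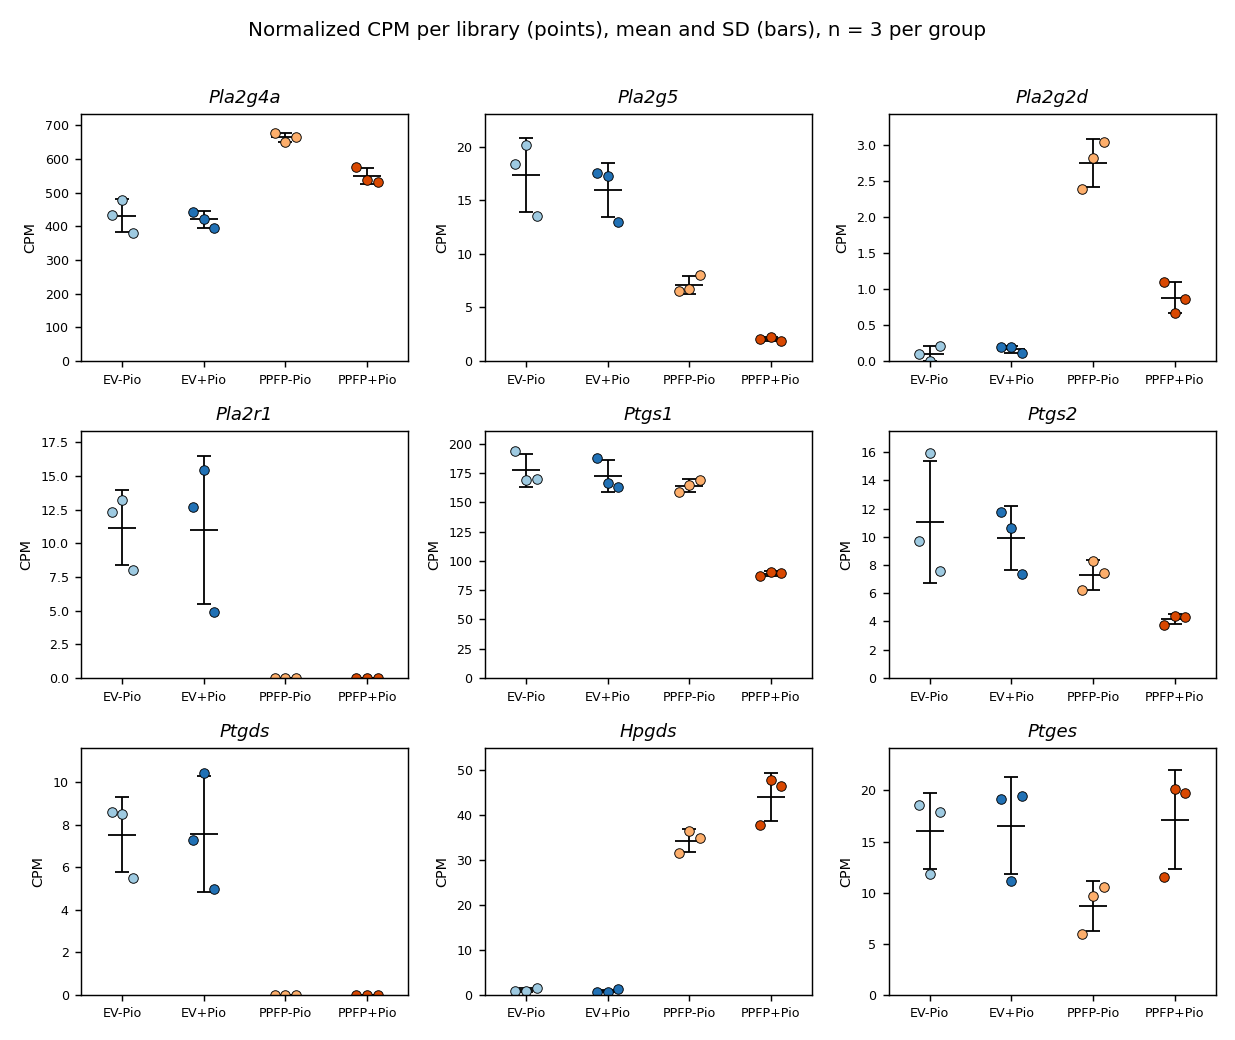
Each panel plots 1 member's level in CPM (linear axis from 0) in the 12 libraries, by group, where points are libraries and bars show the mean ± SD of 3 libraries. The PPFP libraries of Ptgds and Pla2r1 lie at 0, those of Hpgds lie between 31.6 and 47.7 CPM, and Ptgs1 is lower only in PPFP cells with pioglitazone. Hpgd, with no count in any library, is not drawn.

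Arachidonate release was represented by a high level of Pla2g4a, the cytosolic phospholipase A2. It had 434, 479 and 381 CPM in EV cells without pioglitazone, 444, 423 and 395 CPM with it, 677, 652 and 665 CPM in PPFP cells without pioglitazone and 576, 539 and 532 CPM with it. The 6 PPFP libraries were all above the 6 EV libraries, and within PPFP cells the libraries with pioglitazone were all below those without. The log2 fold change of PPFP versus EV cells was 0.64 (standard error 0.11) without and 0.41 (0.08) with pioglitazone, under the 2-fold limit in both cases. Pioglitazone in PPFP cells gave -0.27 (0.04), whereas in EV cells it gave -0.04 (0.11).

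The secreted enzymes encoded by Pla2g5 and Pla2g2d lay on opposite sides of EV cells. Pla2g5, a group V enzyme that can release arachidonate from the outer leaflet of membranes, had 18.4, 20.2 and 13.5 CPM in EV cells without pioglitazone and 17.5, 17.3 and 13.03 CPM with it. In PPFP cells it had 6.49, 6.77 and 8.02 CPM without pioglitazone and 2.04, 2.24 and 1.86 CPM with it. The order was therefore EV cells, then PPFP cells, then PPFP cells with pioglitazone, and the libraries of these steps did not overlap, whereas the EV groups overlapped each other. PPFP versus EV cells gave a log2 fold change of -1.28 (standard error 0.19) without and -2.94 (0.18) with pioglitazone, or 7.66-fold lower in the latter. In PPFP cells the fitted level was 3.46-fold lower with pioglitazone, at -1.79 (0.15), beside -0.13 (0.19) in EV cells, and the difference of these responses was -1.68 (0.27).

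Pla2g2d, a group IID secreted enzyme known from lymphoid tissue, was a low-count gene. It had 3, 0 and 6 counts in EV libraries without pioglitazone and 7, 6 and 3 with it, then 65, 76 and 72 counts in PPFP libraries without pioglitazone and 29, 18 and 26 with it. All PPFP libraries were above all EV libraries, and those with pioglitazone were all below those without. In CPM the PPFP means were 2.75 ± 0.33 without and 0.876 ± 0.213 with pioglitazone, beside 0.102 ± 0.103 and 0.163 ± 0.048 in EV cells (SD, n = 3). The log2 fold change was 4.72 (standard error 0.53) without and 2.40 (0.35) with pioglitazone, and -1.64 (0.22) for pioglitazone in PPFP cells. So few counts in EV cells made these values depend on single libraries: without EV replicate 3 the first was 5.65. The difference between the responses of the cell lines was -2.34 (0.76), not past the adjusted p, and -1.77 and -3.28 without EV replicate 2 and 3; it was called by DESeq2 and with the block within each cell line. Pla2g2d was not tested for pioglitazone in EV cells because its counts there did not pass the filter on low counts.

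Pla2r1 encodes the M-type receptor that binds secreted phospholipases A2, and its pattern was that of Ptgds. EV libraries had 367, 395 and 233 counts without pioglitazone and 470, 483 and 136 with it, or 12.3, 13.2 and 7.98 CPM and 12.7, 15.4 and 4.88 CPM. Each of the 6 PPFP libraries had 0 counts. Pla2r1 was at least 96.3-fold lower in PPFP cells without pioglitazone and at least 102-fold lower with it. Replicate 3 had the lowest Pla2r1 and the lowest Ptgds in both EV groups, and the mean with pioglitazone, 11.01 ± 5.48 CPM, overlapped that without, 11.2 ± 2.79 CPM (SD, n = 3).

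The genes beside Ptgds and Pla2r1 had counts in both cell lines, though several were lower in PPFP cells. By the order of genes in GRCr8, the 3 neighbours on each side of Ptgds held 5 that were tested without pioglitazone, of which 4 were lower past the adjusted p, as were 23.1% of all genes. The neighbours of Ptgs1, whose own level overlapped between the cell lines without pioglitazone, gave the same count, 4 of 5, with Pdcl at -0.74 (adjusted p = 8.5e-04) and Rbm18 at -0.61 (adjusted p = 0.0039). Neighbours are the next protein-coding genes counted, at any distance. Those of Ptgds lie within 44 kb by their start coordinates, whereas Rbm18 lies 117 kb and Pdcl 1539 kb from Ptgs1. Beside Ptgds, C8g was called lower past the 2-fold limit (log2 fold change -1.25, adjusted p = 0.0062), and Clic3 (-0.69, adjusted p = 0.038), Abca2 (-0.60, adjusted p = 0.0081) and Fbxw5 (-0.48, adjusted p = 0.0083) were lower by less. Of the 6 neighbours of Pla2r1, the lectin gene Cd302 was called lower (log2 fold change -1.10, adjusted p = 7.1e-04), Rbms1 was lower by less (-0.69, adjusted p = 0.0028) and Tank, 1230 kb away, was higher (0.58, adjusted p = 0.0015). Pla2g5 and Pla2g2d are neighbours themselves, and other genes of their cluster were low in all groups: over the libraries of each cell line Pla2g2a had 1 count, Pla2g2f had 7 and Pla2g2e had 44 in EV and 59 in PPFP cells. Pla2g2c had 208 and 142 counts, more than Pla2g2d had in EV cells, with a log2 fold change of -0.14 (adjusted p = 0.84) without pioglitazone. Pla2g4a and Ptgs2 are also adjacent, and their log2 fold changes without pioglitazone were 0.64 and -0.58.

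Of the cyclooxygenases, Ptgs1, the constitutive form, had 194, 169 and 170.2 CPM in EV cells without pioglitazone and 188, 166 and 163 CPM with it. In PPFP cells it had 159, 165 and 169 CPM without pioglitazone and 86.9, 90.4 and 90.0 CPM with it. The libraries of PPFP cells without pioglitazone overlapped those of EV cells, and the 3 PPFP libraries with pioglitazone were below all 9 others. The log2 fold change of PPFP versus EV cells was -0.09 (standard error 0.09) without and -0.93 (0.08) with pioglitazone, the latter 1.90-fold and so short of the 2-fold limit, though -1.06 and past it when counts were scaled by library size alone. Pioglitazone gave -0.88 (0.06) in PPFP cells and -0.05 (0.10) in EV cells, and the difference of these responses was -0.85 (0.12).

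Ptgs2, the inducible cyclooxygenase, was lower and more variable. It had 9.71, 15.9 and 7.61 CPM in EV cells without pioglitazone and 11.7, 10.7 and 7.36 CPM with it, and in PPFP cells 6.201, 8.32 and 7.43 CPM without and 3.78, 4.40 and 4.34 CPM with pioglitazone. The PPFP and EV libraries overlapped without pioglitazone and did not overlap with it. PPFP versus EV cells gave a log2 fold change of -0.58 (standard error 0.28) without pioglitazone, which was -0.22 without EV replicate 2 and -0.80, then past the adjusted p, without EV replicate 3. With pioglitazone it was -1.22 (0.21). Pioglitazone gave -0.81 (0.15) in PPFP cells, with no overlap, and -0.16 (0.31) in EV cells.

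Ptges, the inducible microsomal prostaglandin E synthase, was lower in PPFP cells without pioglitazone and overlapped EV cells with it. EV libraries had 18.6, 11.8 and 17.9 CPM without pioglitazone and 19.2, 11.1 and 19.4 CPM with it. PPFP libraries had 5.94, 9.69 and 10.6 CPM without pioglitazone and 11.6, 20.2 and 19.7 CPM with it. Within PPFP cells, each library with pioglitazone was above the library of the same number without it, and replicate 1 was the lowest in both groups. The log2 fold change of PPFP versus EV cells was -0.86 (standard error 0.26) without pioglitazone and 0.08 (0.29) with it, and pioglitazone gave 0.98 (0.30) in PPFP cells beside 0.04 (0.26) in EV cells. Leaving out single libraries put the first value between -0.62 (without PPFP replicate 1) and -1.04 (without EV replicate 2), and the response of PPFP cells between 0.74 and 1.19 (without replicate 1 of PPFP cells without and with pioglitazone). The first value was past the 2-fold limit without EV replicate 2 (-1.04) or PPFP replicate 3 (-1.01) and not past the adjusted p without EV replicate 1 (-0.73) or 3 (-0.80) or PPFP replicate 1 (-0.62) or 2 (-0.93), and the response of PPFP cells was called without replicate 1 of those with pioglitazone (1.19).

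Hpgd, which encodes the enzyme that oxidises and so inactivates prostaglandins, had 0 counts in each of the 12 libraries. Its counted level was below what 3 counts per library allow, at most 0.127 CPM, and no comparison was made. Of the 16816 gene symbols, 3447 had no count in any library. A gene to which the counting could assign no reads cannot be told apart from one without RNA.

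**Figure D2:**
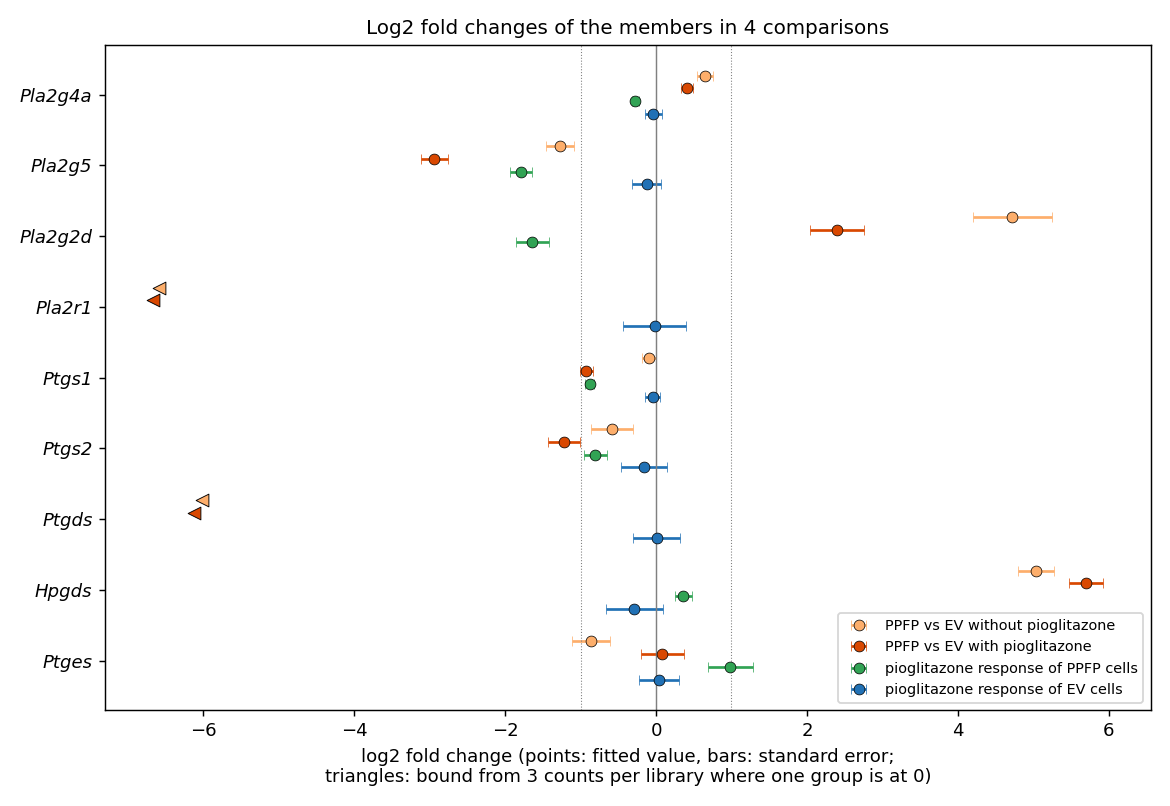
Fitted log2 fold changes (horizontal axis) of the members in 4 comparisons, with bars for the standard error; triangles mark the bound from 3 counts per library where the PPFP libraries are at 0, and dotted lines mark 2-fold. Pioglitazone in EV cells (blue) lies between -0.29 and 0.04 for every member fitted, and Pla2g5 and Pla2g2d lie below -1 for pioglitazone in PPFP cells (green).

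Over the members as a list, 9 passed the filter on low counts in the comparison of PPFP and EV cells without pioglitazone. Ptgds and Pla2r1 passed only through the EV libraries and Pla2g2d only through the PPFP libraries, so these had to differ. The limits for a call were a fold change above 2 and an adjusted p below 0.05. Without pioglitazone 2 members were called higher in PPFP cells (Hpgds and Pla2g2d), where 7.27% of all 10264 genes tested were, and 3 were called lower (Ptgds, Pla2r1 and Pla2g5), where 7.31% were. At any fold change 3 had an adjusted p under 0.05 in the higher direction and 4 in the lower, beside 22.0% and 23.1% of all genes. The libraries of the cell lines did not overlap for 7 members and for 56.0% of all genes, and the members' median log2 fold change was -0.58 beside 0.0016 for all genes. With pioglitazone in both cell lines 2 members were called higher (9.30% of 10291 genes) and 4 lower, Ptgs2 joining the earlier 3 (10.4%), and at any fold change 3 were higher and 5 lower (26.3% and 26.4%). There 8 members did not overlap, beside 62.9% of all genes. The members were chosen on these values, so nothing is read from these shares.

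For pioglitazone in PPFP cells 7 members were tested. None was called higher, where 1.11% of 10064 genes were, and 2 were called lower (Pla2g5 and Pla2g2d), where 1.31% were. At any fold change 0 members were past the adjusted p in the higher direction and 5 in the lower (the same 2 with Ptgs1, Ptgs2 and Pla2g4a), beside 7.63% and 7.13% of all genes. The replicate number was also fitted as a block, though in PPFP cells the pairing was clear for replicate 1 only. With that block all 7 tested were past the adjusted p, Hpgds and Ptges in the higher direction, beside 27.7% higher and 23.9% lower of all genes. Without a block, DESeq2 also put these 7 past it, edgeR's exact test put 5 (Ptges in the higher direction, and not Pla2g4a), and a single fit of all 12 libraries put 3. With single libraries left out, between 3 and 7 members were past the adjusted p. Ptgs2 and Pla2g4a were not past it without replicate 3 of PPFP cells without pioglitazone or replicate 2 or 3 of those with it, nor was Ptgs2 without replicate 2 of the former, and Hpgds and Ptges were past it without replicate 1 of the latter. The libraries did not overlap for the 7 members tested and for 34.1% of all genes. In EV cells none of the 8 members tested was called, nor was any of the 10146 genes (0%), by edgeR's quasi-likelihood or exact test or by DESeq2; 16 genes had an unadjusted p under 0.05 and the libraries of 1.46% did not overlap. The difference between the responses of the cell lines was called for 1 member, Pla2g5, and for 0.925% of 10482 genes, and Ptgs1 was past the adjusted p at a smaller fold. With the block within each cell line, an alternative chosen after the data were seen, 7 members were past it, beside 34.3% of all genes. The fitted difference of the responses was 0.65 (standard error 0.34) for Hpgds, 0.93 (0.42) for Ptges, -0.66 (0.38) for Ptgs2 and -0.25 (0.13) for Pla2g4a. These comparisons share libraries and are not independent of one another.

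Outside the members, a list of 64 further genes of the pathway was examined, of which 59 had a row. Without pioglitazone 33 of them were tested in PPFP versus EV cells and 17 were past the adjusted p, 11 higher and 6 lower, beside 22.0% higher and 23.1% lower of all genes, with a median log2 fold change of 0.19. With pioglitazone 23 of 33 were, 15 higher and 8 lower, beside 26.3% and 26.4% of all genes, with a median of 0.24. The higher counts include Pla2g1b and Ptger4, and Alox15 with pioglitazone, which passed the filter on low counts only through the PPFP libraries, so these had to differ and are described without a p value between the cell lines. The adjusted p values below are from edgeR's quasi-likelihood test over all genes tested.

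Among the other phospholipases A2 and their regulators, 9 of 16 with a row were tested without pioglitazone, and 2 were higher and 1 lower past the adjusted p, beside 22.0% and 23.1% of all genes. Pla2g1b, the pancreatic-type secreted enzyme, had 7, 11 and 3 counts in EV libraries and 303, 370 and 303 in PPFP libraries without pioglitazone. The means were 0.235 ± 0.133 and 12.5 ± 1.30 CPM (SD, n = 3), no library lay in between, and the log2 fold change was 5.72 (standard error 0.31), beside 6.36 (0.27) with pioglitazone. Anxa1, the annexin known to restrain cytosolic phospholipase A2, rose from 57.9 ± 10.8 to 130 ± 9.78 CPM (log2 fold change 1.19, adjusted p = 3.2e-04). Pla2g12a fell by 0.59 on the log2 scale (adjusted p = 0.002), and Pla2g6, the calcium-independent enzyme, had a log2 fold change of 0.34 with an adjusted p of 0.061.

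Of 6 other terminal synthases and reductases tested without pioglitazone, 2 were higher and 2 lower past the adjusted p, beside 22.0% and 23.1% of all genes. Ptges3, the cytosolic E synthase and HSP90 cochaperone, rose by 0.84 on the log2 scale (adjusted p = 0.0021), and the aldose reductase gene Akr1b1, whose product can make prostaglandin F2α, rose by 0.66 (adjusted p = 0.001). Ptges2 fell by 0.53 (adjusted p = 0.0061) and Fam213b, a prostamide and prostaglandin F synthase gene, fell by 1.18 (adjusted p = 0.0021). Ptgis, the prostacyclin synthase, had a log2 fold change of -0.78 (adjusted p = 0.059) without pioglitazone and fell by 1.84 (adjusted p = 0.0016) with it. Tbxas1, the thromboxane synthase, had a mean of at most 0.071 CPM in any group.

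The prostaglandin transporter Slco2a1 rose by 0.54 on the log2 scale (adjusted p = 0.0016) and Ptgr2, a reductase of 15-keto prostaglandins, rose by 0.42 (adjusted p = 0.0073). Ptgr1, a reductase that works on leukotriene B4 and 15-keto prostaglandins, fell from 256 ± 38.5 to 114 ± 12.2 CPM (log2 fold change -1.15, adjusted p = 3.1e-04). Of 10 genes listed under receptors, which include the regulator Ptgfrn, 4 were tested and 3 were past the adjusted p in the higher direction, where 22.0% of all genes were. Ptger4, the EP4 receptor for prostaglandin E2, went from 2, 0 and 4 counts in EV libraries to 43, 44 and 36 in PPFP libraries without pioglitazone (log2 fold change 4.48, standard error 0.52). The thromboxane receptor gene Tbxa2r rose by 0.79 (adjusted p = 0.019) and Ptgfrn, a negative regulator of the F receptor, by 0.59 (adjusted p = 0.0018), while Ptger1 was at 44.7 ± 2.41 and 47.0 ± 1.88 CPM. The D2 receptor Ptgdr was at 0 in every library and Ptgdr2 had a mean of at most 0.033 CPM in any group. Tbxa2r was not past the adjusted p without PPFP replicate 2 (adjusted p = 0.073) or with the replicate block.

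The lipoxygenase branch was mostly silent, with 2 of 13 genes tested without pioglitazone. Lta4h, the leukotriene A4 hydrolase, rose by 0.50 on the log2 scale (adjusted p = 0.007), and Alox15, which did not pass the filter without pioglitazone, had a log2 fold change of 1.79 with it, at means of 0.121 CPM in EV and 0.431 CPM in PPFP cells. Among genes that handle arachidonate, Elovl5, an elongase of polyunsaturated fatty acids, rose from 81.7 ± 2.32 to 218 ± 5.53 CPM (log2 fold change 1.44, adjusted p = 8.9e-06). Faah, which breaks down anandamide, fell by 1.41 (adjusted p = 1.3e-04), and the delta-5 desaturase gene Fads1 fell by 0.55 (adjusted p = 0.013). Fads1 was not past the adjusted p without PPFP replicate 2 or 3.

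**Figure D3:**
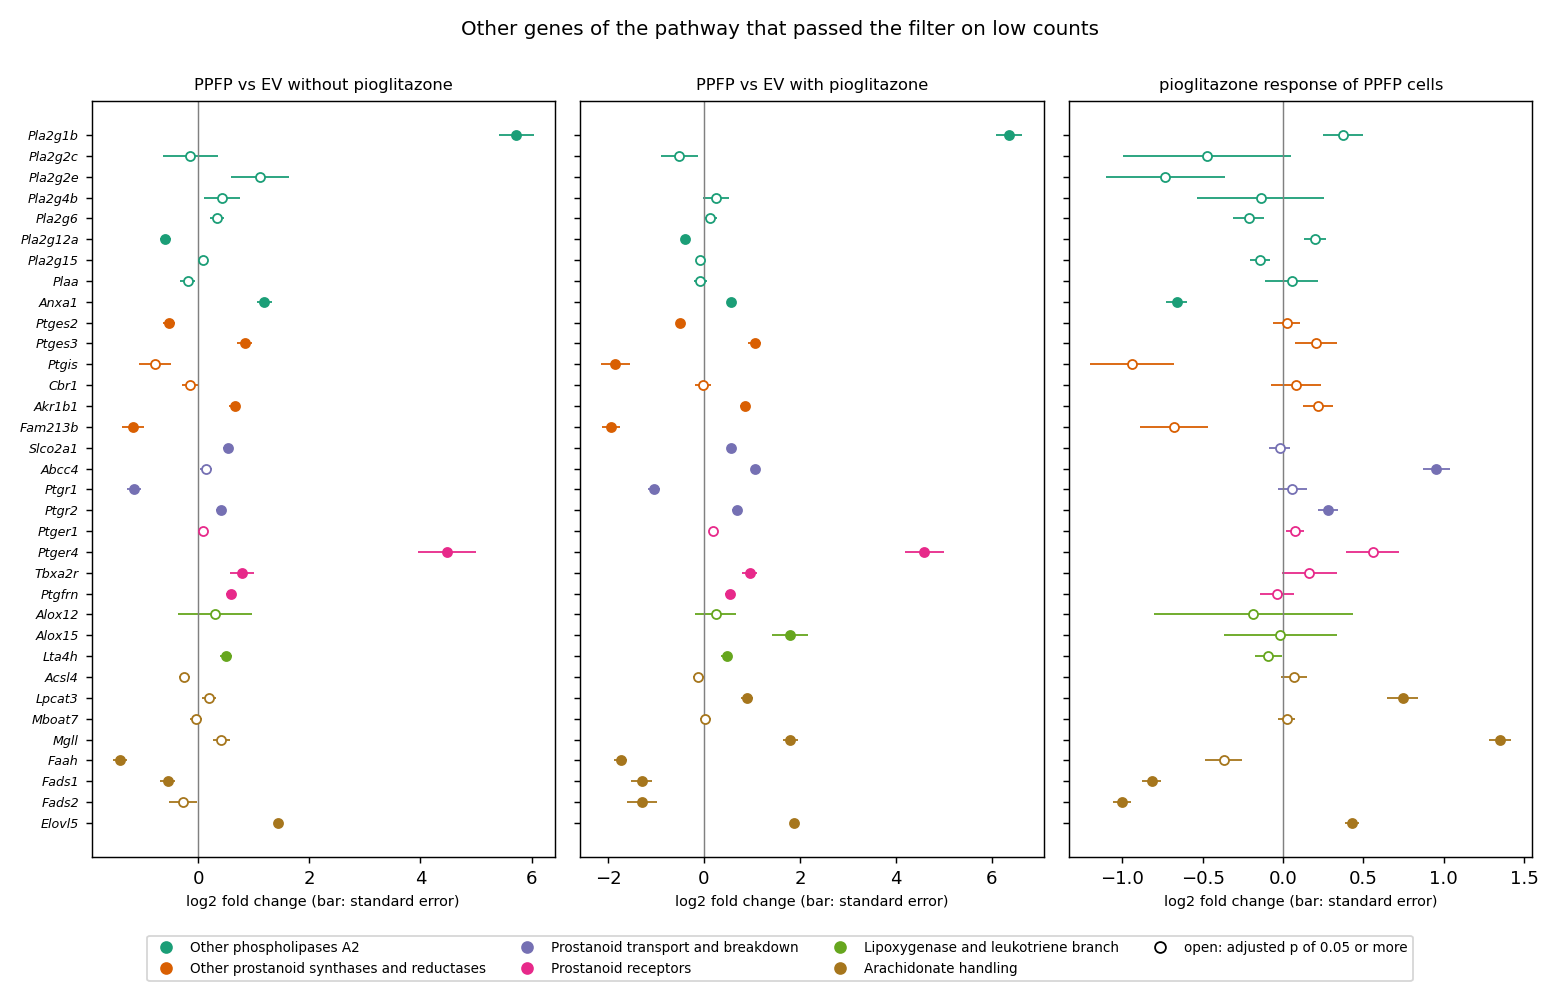
Log2 fold changes (horizontal axis, bars show the standard error) of the other pathway genes that passed the filter, coloured by role, in 3 comparisons with separate scales; filled points have an adjusted p under 0.05. Pla2g1b (5.72) and Ptger4 (4.48) lie far to the right of the other genes without pioglitazone.

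Pioglitazone in PPFP cells changed 8 of 34 tested pathway genes, 5 higher and 3 lower, beside 7.63% higher and 7.13% lower of all genes. With the replicate block 18 were past the adjusted p, 10 higher and 8 lower, beside 27.7% and 23.9% of all genes, so the counts with the block were near the background. Mgll, the monoacylglycerol lipase that can also supply arachidonate, rose from 103 ± 1.96 to 263 ± 17.8 CPM (log2 fold change 1.35, adjusted p = 3.6e-04). The prostanoid efflux pump gene Abcc4 rose from 64.3 ± 5.54 to 124 ± 4.72 CPM (log2 fold change 0.95, adjusted p = 0.0012), and Lpcat3, which loads arachidonate into phospholipids, rose by 0.74 (adjusted p = 0.0045). The desaturase genes Fads2 and Fads1 had log2 fold changes of -1.004 and -0.82 (adjusted p = 3.7e-04 and 7.3e-04), and Anxa1 fell by 0.66 (adjusted p = 0.0018) while staying above its EV level. Elovl5 rose by 0.43 (adjusted p = 0.0021) and Ptgr2 by 0.28 (adjusted p = 0.031), the latter not past the adjusted p whenever 1 library was left out. Under the block by replicate Ptger4 also rose, by 0.56 (adjusted p = 0.0086), and Pla2g1b by 0.37 (adjusted p = 1.3e-04), while Ptgis fell by 0.94 (adjusted p = 0.013), Fam213b by 0.69 (adjusted p = 0.0082) and Faah by 0.37 (adjusted p = 0.0027). No pathway gene of 30 tested was past the adjusted p in EV cells, by edgeR or DESeq2.

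**Figure D4:**
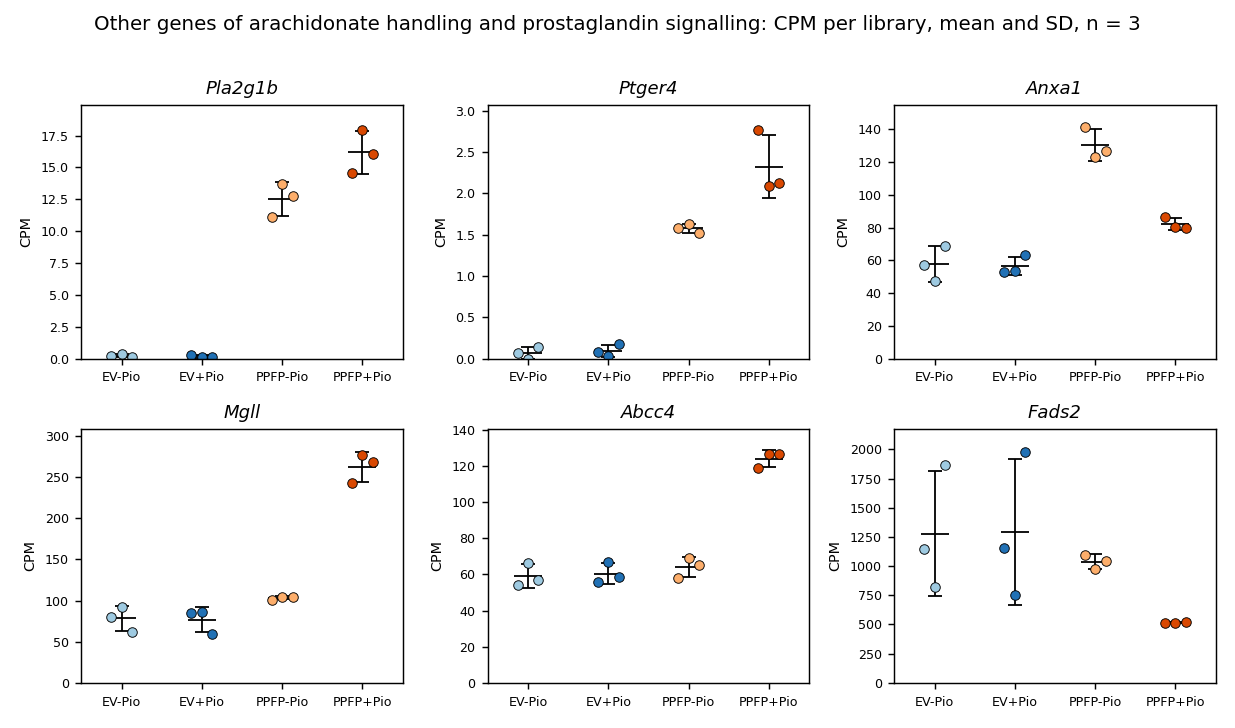
Levels in CPM (linear axes from 0) of 6 further pathway genes in the 12 libraries, with the mean ± SD of 3 libraries. Pla2g1b and Ptger4 are near 0 in EV cells, and Mgll and Abcc4 are raised in PPFP cells with pioglitazone, at 263 and 124 CPM.

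The replicate of an EV library moved several members together. Replicate 3 of both EV groups was below its group mean for Ptgds (log2 deviations -0.42 and -0.53), Pla2r1, Pla2g5, Ptgs2 and Pla2g4a, and above it for Hpgds (0.60 and 0.48). In PPFP cells replicate 1 was the lowest for Hpgds, Ptgs2 and Ptges in both groups. Over the 12 libraries, the genes whose log2 CPM (plus 0.1) correlated most with a member are given as a description, since the libraries share cell line and treatment and any gene that splits the cell lines in the same way will rank high. For Ptgds they were Fgd4 (Pearson r = 1.00, n = 12 libraries), Myl9 (0.999) and Asic2 (0.999), for Pla2r1 Sulf2, Ptgds and Tspan7 (0.999 each), and for Hpgds Kitlg, Rap1b (0.998 each) and Reep5 (0.997). For Ptgs1 they were Prelp (0.996), St8sia2 and Dbn1, and for Ptgs2 Fndc3a (0.971), Adck4 and Maf. For Pla2g5 they were Xdh (0.991), Lbp and Slc20a1, for Pla2g2d Slc4a7 (0.973), Zc3h7b and Dazap2, and for Pla2g4a Pxn (0.972), Ctss and Lrrk2. Between members, Ptgds and Hpgds had r = -0.996, Ptgs1 and Pla2g5 0.933, and Ptges and Pla2g5 -0.0058.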

How the data were processed

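RNA-seq gene counts of 12 libraries were analysed. The deposited table holds raw read counts per gene, which the authors made by aligning paired-end reads to rn4 with TopHat2 2.0.11 and counting with HTSeq 0.6.1p1 in the intersection-strict mode, per their methods and the submitters' processing notes; the strand setting and annotation are not given in the sources used here, so reads of a gene and of an antisense or overlapping partner cannot be told apart. The PPFP peak lists were not used here.

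Low counts were removed (filterByExpr) and libraries scaled (TMM). The quasi-likelihood test of edgeR 4.0.16, with limma 3.58.1 under R 4.3.3, was run on the 6 libraries compared, or on 12 for the difference in pioglitazone response, with Benjamini-Hochberg adjustment over all genes tested. Standard errors are the log2 fold change over the square root of F. A group at no more than 3 counts in every library was at the floor, and folds against it are bounds. The method was tested on simulated data. Python 3.11.15 and matplotlib 3.10.9 served for promoters and figures.

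The members and lists were chosen with earlier results of these data known. Named were the members, Pparg, Pax8, up to 12 pathway genes per comparison with the largest changes past the adjusted p, and the 3 genes most correlated with each member, which are not reported here for Ptges. Other genes are named for context and were chosen after their values were seen.

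Libraries totalled between 23724703 and 35240176 counts, with a biological coefficient of variation of 0.126 to 0.156, and n = 3 and counting error limit the precision. Pairing by replicate number was checked from deviations of log2 CPM from group means. Within a cell line the same-numbered libraries correlated (0.768, 0.496 and 0.466 in PPFP cells, 0.557, 0.752 and 0.795 in EV cells) and were taken as paired. In PPFP cells only replicate 1 was clearly paired. There replicate 3 with and replicate 2 without pioglitazone had 0.564, and replicate 2 with and replicate 3 without it had 0.38. Between cell lines the same-numbered libraries were not taken as paired (-0.258, 0.335 and -0.336 without pioglitazone).

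Alternatives were edgeR's exact test, DESeq2 1.42.0, RLE factors, library size alone, no filter, at least 10 counts in every library, a single fit of all 12 libraries, the replicate block and each library left out. Scaling by library size alone put the median log2 fold change of all genes at -0.12 for PPFP versus EV cells with pioglitazone, in place of 0.012, and moved it by less in the other comparisons.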

Additional observations from a re-analysis of the deposited data

Results flagged for a closer look

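The response to pioglitazone differed between the cell lines by the interaction test for 5 of the genes described. For the members Pla2g5 and Ptgs1 the difference in log2 response was -1.68 and -0.85, with PPFP cells lower, and this is a description because the members were selected on these libraries. For the pathway genes Mgll, Abcc4 and Elovl5 the difference was 1.37 (adjusted p = 0.011), 0.91 (adjusted p = 0.0076) and 0.41 (adjusted p = 0.03), with PPFP cells higher, and that of Elovl5 was not past the threshold in 10 of the 12 fits that left out a library.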

How the results depend on the processing

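Of 150 recomputed counts 142 stayed within 1.5 times of the value reported. Of 1123 recomputed fold changes 1086 were labelled the same, 16 moved, 21 weaker and 0 reversed. For a member, the same meant a change smaller than the spread between libraries, and a reversal was counted only where it was called. Loss of the adjusted p was counted for pathway genes only, as weaker. Ptges with pioglitazone was not called, and its 0.08 became -0.05 with library size alone and -0.14 without EV replicate 2. Both were labelled the same. Requiring at least 10 counts in every library left 2 members called without and 3 with pioglitazone in both cell lines, since genes with libraries near 0 were not tested. For pioglitazone in PPFP cells the replicate block put 18 pathway genes past the adjusted p in place of 8. For the difference in response DESeq2 called 2 members and put 5 pathway genes past the adjusted p, and the replicate block over all libraries put 5 past it. With the block inside each line, an alternative chosen after seeing the data, 2 members were called and 14 pathway genes were past it. The cause was not tested. Over all genes, the block put 5198 past the adjusted p for pioglitazone in PPFP cells in place of 1486. For the difference in response, the block inside each line put 3594 past it in place of 277, called 269 in place of 97, and put 7 members past it in place of 2. With single libraries left out the members called were 5 to 6 without pioglitazone, 6 with it, 2 to 3 for pioglitazone in PPFP cells and 1 for the difference, and the pathway genes past the adjusted p were 15 to 22, 23, 7 and 2 to 3. In EV cells both stayed at 0. With library size alone 43.8% of calls without pioglitazone were higher, beside 49.9%, and 39.7% beside 47.2% with it. Between the cell lines, replicate numbers did not pair the libraries, and the block there left the members called at 5 without and 6 with pioglitazone. At this depth, genes at 0 are limited to what 3 counts allow, at most 0.127 CPM.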

Other observations

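Pathway genes outside the comparisons had low or absent counts. Alox5ap, the activating protein of 5-lipoxygenase, had a mean of 0.280 CPM in EV cells without and 0.283 CPM with pioglitazone and 0 in every PPFP library, and it was not tested because it did not pass the filter on low counts. Cysltr1, Ltb4r2, Ptger2 and Ptger3 were at 0 in every library. Fads2 varied among the EV libraries without pioglitazone from 825 to 1869 CPM and in PPFP cells without pioglitazone from 972 to 1097 CPM. Without pioglitazone Pax8 had 739 ± 55.2 CPM (SD, n = 3) in the EV and 688 ± 15.4 CPM in the PPFP libraries (edgeR adjusted p = 0.47), and in PPFP cells it fell by 0.33 on the log2 scale with pioglitazone (adjusted p = 0.0048). As for Pparg, reads of the human transgene that align to the rat gene cannot be separated from rat Pax8.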
